A study of Mus musculus with 6 samples.

Results

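The 37 genes described here are interferon-stimulated genes and genes of class I antigen presentation, taken as a list from the 55402 features of 6 single-cell RNA matrices of the mouse aortic root. They were listed by name, with earlier results of these data known, so the list is not independent of the data. They comprise 2 sensors of viral RNA, 4 transcription factors, 18 antiviral effectors and feedback genes, 7 interferon-inducible GTPases and 6 genes of class I presentation. The libraries came from male mice aged 24 weeks in 3 groups. Littermate controls carried wild-type Fbn1 and Klf4. Marfan mice carried Fbn1 C1041G/+, a missense allele of fibrillin-1 used as a mouse model of Marfan syndrome, with wild-type Klf4. The last group carried Fbn1 C1041G/+ together with floxed Klf4, which the title of the series describes as deleted in smooth muscle cells (SMC). The labels used here name neither the driver nor the timing of that deletion. In every group the aortas of 4 animals were pooled, digested and sorted on tdTomato into a lineage-positive (SMC-traced) and a lineage-negative fraction, so each group and fraction is 1 library.

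Interferons are secreted proteins that bind receptors at the cell surface and act through JAK kinases and STAT transcription factors. Type I interferon signals mainly through a complex with STAT2 and IRF9 that binds the interferon-stimulated response element (ISRE). Interferon gamma acts through the gamma-activated site (GAS) and is the stronger inducer of the GTPases, of the immunoproteasome and of class I and class II presentation. Class I molecules display peptides, cut by the proteasome and carried into the endoplasmic reticulum by TAP, on nearly all nucleated cells. Vascular SMC and fibroblasts are known to respond to both kinds of interferon.

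The members share sequence in their promoters. Of the 37 genes, 31 had a RefSeq promoter window (GRCm38.p6, 250 bases before to 50 after the start), and 17 of those, 54.8%, held GAAA, any 2 bases and GAAA again on either strand, a simple form of the ISRE. Over all 27025 genes with such windows the share was 3.99%. The letters TTCNNNGAA, a simple form of the GAS, stood in 8 of 31 (25.8%) against 9.55% of all genes, and 4 of 31 (12.9%) against 0.614% held both. In Bst2 the GAS match shares bases with an ISRE match, so the capitals run together. By role, the ISRE letters were found in 5 of 6 GTPases with a window, 8 of 13 effectors, 2 of 2 sensors, 1 of 4 transcription factors and 1 of 6 class I genes, the last being B2m. The stretches below are the 150 bases before the start, 5′ to 3′ on the gene's strand, with matches of either motif in capitals. They were chosen to show an ISRE alone (Isg15, an antiviral ubiquitin-like protein; Ifit1, which binds viral RNA; B2m, the light chain of class I), both motifs (Bst2, which tethers budding virions; Gbp7 and Igtp, GTPases that act on pathogen vacuoles) and a GAS alone (Psmb8, a catalytic subunit of the immunoproteasome). They lie at chr4:156200819-156200968 (Isg15, minus strand), chr19:34640739-34640888 (Ifit1, plus), chr8:71537473-71537622 (Bst2, minus), chr3:142530186-142530335 (Gbp7, plus), chr11:58199406-58199555 (Igtp, plus), chr17:34198045-34198194 (Psmb8, plus) and chr2:122147537-122147686 (B2m, plus). A match is a description of the letters and not a shown binding site.
Isg15: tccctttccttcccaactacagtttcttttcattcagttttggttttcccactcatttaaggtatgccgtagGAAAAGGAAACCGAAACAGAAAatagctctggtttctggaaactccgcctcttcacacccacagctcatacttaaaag
Ifit1: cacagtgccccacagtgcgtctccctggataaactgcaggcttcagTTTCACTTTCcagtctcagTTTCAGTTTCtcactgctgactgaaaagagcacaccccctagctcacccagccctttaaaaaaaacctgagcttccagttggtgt
B2m: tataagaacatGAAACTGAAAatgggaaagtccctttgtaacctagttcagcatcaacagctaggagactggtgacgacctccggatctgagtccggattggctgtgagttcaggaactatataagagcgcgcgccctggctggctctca
Bst2: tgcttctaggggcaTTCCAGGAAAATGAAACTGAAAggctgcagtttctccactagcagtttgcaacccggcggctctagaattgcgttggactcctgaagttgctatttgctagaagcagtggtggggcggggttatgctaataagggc
Gbp7: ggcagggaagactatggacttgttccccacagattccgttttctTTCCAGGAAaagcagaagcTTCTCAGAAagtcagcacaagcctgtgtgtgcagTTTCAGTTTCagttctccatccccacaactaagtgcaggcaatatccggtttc
Igtp: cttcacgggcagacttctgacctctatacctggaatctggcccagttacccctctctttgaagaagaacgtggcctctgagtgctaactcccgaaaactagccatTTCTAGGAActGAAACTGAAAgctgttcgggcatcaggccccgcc
Psmb8: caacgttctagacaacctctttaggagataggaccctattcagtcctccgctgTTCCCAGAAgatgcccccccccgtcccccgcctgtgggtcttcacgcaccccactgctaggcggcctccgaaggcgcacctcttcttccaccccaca

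The targeted gene went against its label. Over the lineage-positive libraries Klf4 stood at 30.4 CPM (counts scaled to a common total) in control, 44.6 in Marfan and 116 for the library labelled Klf4-floxed, which was the highest. Reads from a floxed allele can still be counted outside the removed exons, so a 3′ count may not check the deletion, and that library is called by its label throughout. The libraries held 47750360 to 95250397 unique molecular identifiers (UMIs), and 39728 cells were kept of 60200 barcodes. The Marfan lineage-positive library was shallow, with a median of 2153 UMIs in its kept cells against up to 12878 in the others. Pairs of libraries shared 9 to 60 barcodes. With 1 library per group no difference below has a replicate check, no p-value is given, and every ratio compares libraries. Brackets give 95% intervals that cover counting error only. Cells were grouped by clustering without the interferon and class I genes and named from marker genes (SMC-like, fibroblast-like and so on). Clusters that the naming rules left unnamed are called by a leading gene. The SMC-like class was read in the lineage-positive libraries and the other types in the lineage-negative ones.

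In control tissue the genes were low in SMC-like cells and high in macrophage or monocyte-like cells and in a stromal cluster led by Prss35. Among the 10 populations with levels the SMC-like class had the lowest control level for 18 of the 37 genes, the Prss35-led cluster the highest for 18 and the macrophage or monocyte-like class the highest for 9. Isg15 stood at 20.5 CPM in SMC-like cells, 56.97 in fibroblast-like cells, 488 in macrophage or monocyte-like cells and 760.3 in the Prss35-led cluster. H2-K1, a class I heavy chain, stood at 111 CPM in SMC-like, 337 in fibroblast-like and 1624 in endothelial-like cells. Iigp1, a GTPase that acts on pathogen vacuoles, was at 8.81 CPM in SMC-like cells and 367 in the Prss35-led cluster. Isg15 and H2-K1 were lowest in SMC-like cells of all populations. Some members have near-identical copies (Ifit3 and Ifit3b, H2-K1 and H2-D1, the Gbp genes, Ifi204 and Ifi205), and how reads were split between copies is not given in the sources used here.

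**Figure D1:**
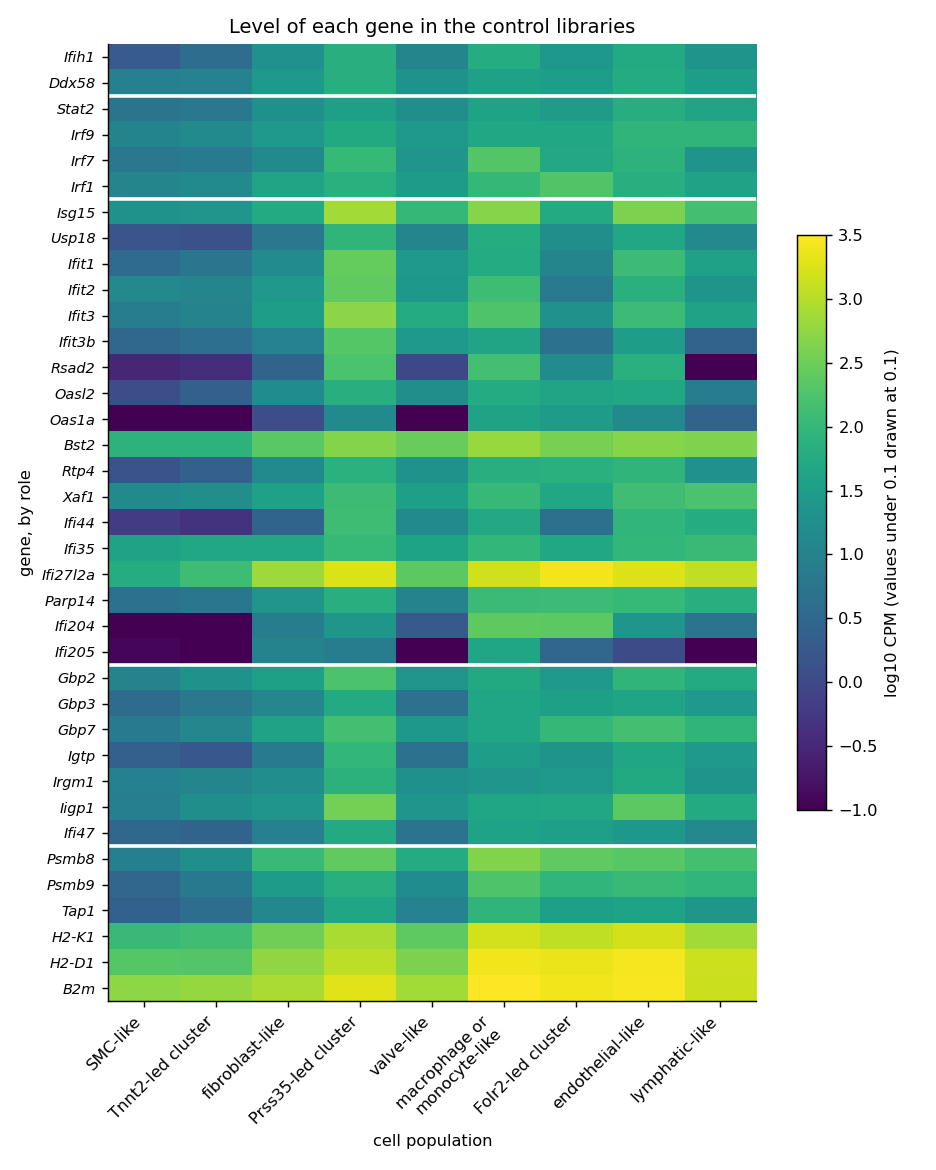
Level of each of the 37 genes (rows, grouped by role) in each of 9 cell populations (columns) of the control libraries, as log10 CPM on a colour scale. Bright colours are high levels: Isg15 is at 760.3 CPM in the Prss35-led column and 20.5 CPM in the dark SMC-like column.

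In SMC-like cells 12 of the 26 genes with at least 5 CPM in either library were at least 1.5-fold higher in Marfan than in control, and 0 were lower. Over all 9389 genes measured so, 4.09% were higher and 3.16% lower, and the members' median log2 ratio was 0.53 against -0.09 for all genes. Of the 12, Ifit1, Ifit3b, Gbp3, Ifi47 and Psmb9 reached 5 CPM only in Marfan and so had to differ, and of 21 members at 5 CPM in both libraries 7 were higher. The count of 12 was 6 with doublets kept and 4 with a minimum of 20 CPM. The 12 fell in 3 roles: 4 of 10 effectors, 4 of 6 GTPases and 4 of 5 class I genes, with 0 of 4 transcription factors and 0 of 1 sensors. The other 11 members were under the minimum in both libraries (Ifih1, Usp18, Rsad2, Oasl2, Oas1a, Rtp4, Ifi44, Ifi204, Ifi205, Igtp and Tap1). Tap1, which carries peptides to class I, was at 2.54 CPM in control, 4.57 in Marfan and 3.84 for the library labelled Klf4-floxed.

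Among the effectors, Isg15 was at 20.5 CPM in control, 41.2 in Marfan and 23.9 for the library labelled Klf4-floxed, a Marfan to control log2 ratio of 1.01 [0.89, 1.12]. Ifit1 stood at 3.80, 8.60 and 8.27 CPM in the same order (1.18 for Marfan to control), and Ifit3 at 8.10, 16.3 and 17.96 CPM. Marfan alone was high for Isg15, while both Fbn1 C1041G/+ libraries were high for Ifit1, Ifit3 and Ifit3b (3.30, 5.63 and 5.48 CPM). Bst2 was at 80.00, 101 and 65.1 CPM, under 1.5-fold between Marfan and control. Ifi27l2a, a small interferon-induced protein of mitochondria, did not follow the others. Its level was 62.2 CPM in control and 59.2 in Marfan, and 13.8 for the library labelled Klf4-floxed. The transcription factors Stat2 (5.32, 6.53 and 6.097 CPM) and Irf7 (6.34, 8.49 and 2.79 CPM) were near the minimum.

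Among the GTPases, Iigp1 stood at 8.81, 23.2 and 18.5 CPM (1.40 for Marfan to control) and Ifi47 at 3.30, 8.92 and 8.996 CPM (1.43). Gbp2 stood at 10.2, 19.1 and 14.7 CPM (0.90), Gbp3 at 3.85, 5.97 and 3.14 CPM (0.63), and Gbp7 at 7.41, 11.1 and 10.54 CPM, just short of 1.5-fold. For all but Gbp3 the control library was the lowest. Among the class I genes, Psmb8 stood at 8.85, 19.01 and 11.7 CPM (1.10) and Psmb9, its partner in the immunoproteasome, at 3.04, 6.98 and 4.21 CPM (1.20). H2-K1 stood at 111, 196 and 131 CPM (0.82) and B2m at 547, 864 and 733 CPM (0.66 [0.64, 0.68]). H2-D1, at 207, 287 and 226 CPM (0.47), was the class I gene under 1.5-fold. For each of these 5 genes Marfan was the highest library and control the lowest.

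**Figure D2:**
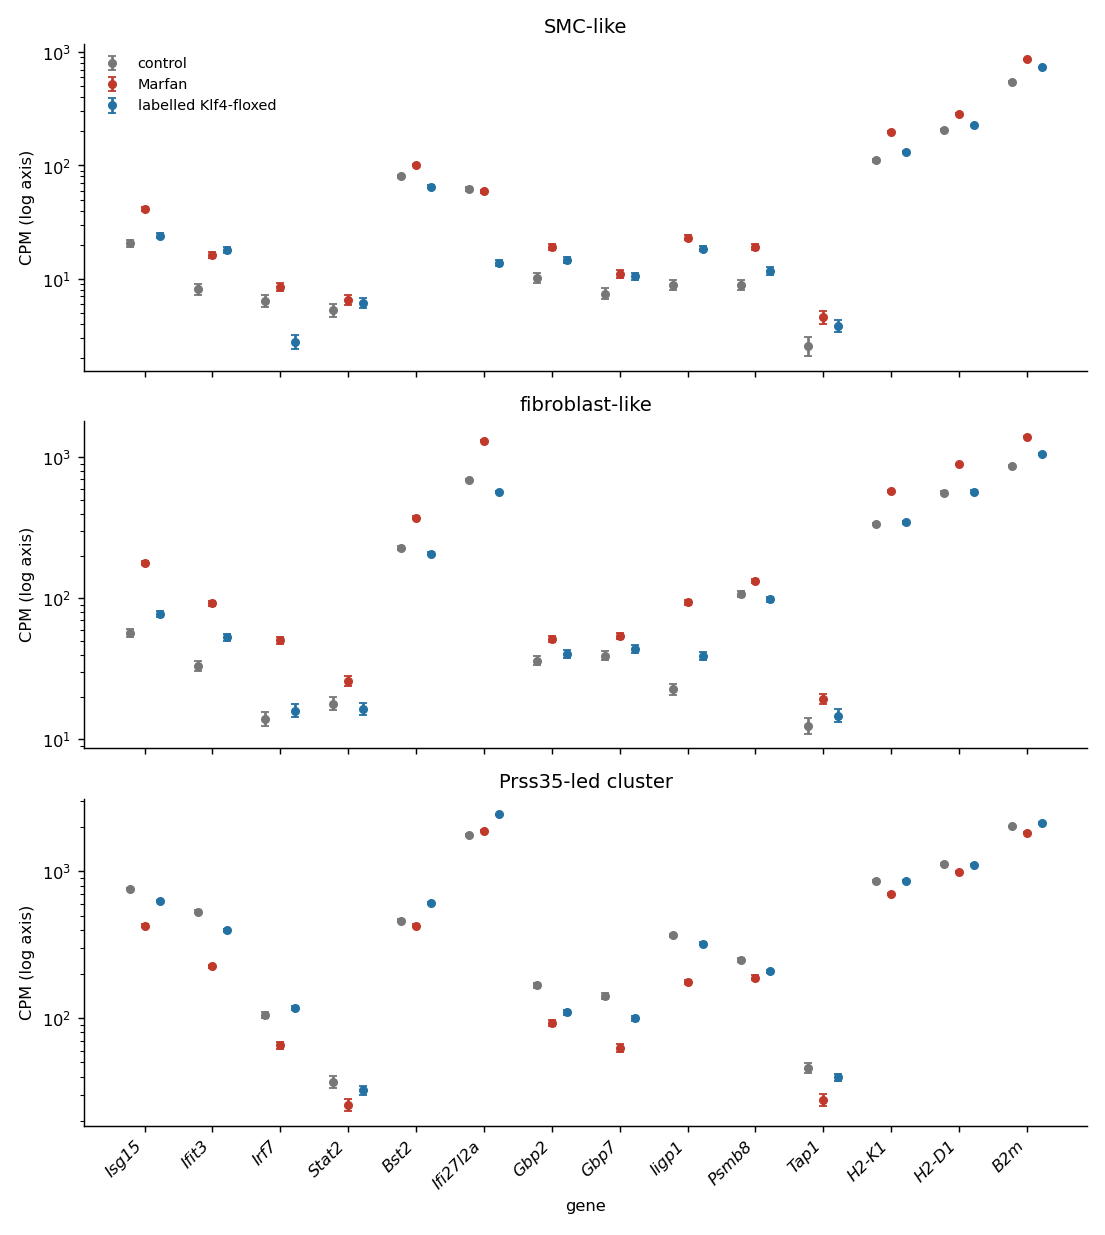
CPM (log axis) of 14 member genes in SMC-like cells, fibroblast-like cells and the Prss35-led cluster, one point per library with its Poisson 95% interval, coloured by genotype. In fibroblast-like cells Isg15 stands at 56.97, 179 and 77.3 CPM in control, Marfan and the library labelled Klf4-floxed, and in the Prss35-led cluster at 760.3, 426 and 628.

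Between the Marfan library and the one labelled Klf4-floxed, 7 of 26 measured members were at least 1.5-fold lower in the latter and 0 were higher, where 0.759% of all genes were lower and 0.379% higher. The members' median log2 ratio was -0.24. The 7 were Ifi27l2a (-2.10 [-2.21, -1.99]), Irf7 (-1.61 [-1.86, -1.35]), Gbp3 (-0.93), Isg15 (-0.78 [-0.88, -0.69]), Psmb9 (-0.73), Psmb8 (-0.70) and Bst2 (-0.63). Of these, Irf7, Gbp3 and Psmb9 reached 5 CPM only in Marfan, and of 23 members at 5 CPM in both libraries 4 were lower. H2-K1 was just short of it at -0.58, H2-D1 stood at -0.34 and B2m at -0.24. Irf7, the transcription factor that amplifies type I interferon production, and Ifi27l2a were also lower in this library than in control, the 2 members so called, while 5 of 24 were higher than in control (2.7% and 3.74% of all genes). The count of 7 was 3 when doublets were kept, 3 when the fractions were clustered apart and 4 when the unnamed cluster led by Tnnt2 was added to the SMC-like class (0.56% of all genes lower and 0.355% higher there).

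The SMC-like class is a mixture whose make-up differed between libraries, and the class I difference was not the same in each of its clusters. Of 3667 control cells, 3130 lay in cluster 1, which held 1204 of 9534 Marfan cells and 1341 of 4615 cells of the library labelled Klf4-floxed. In cluster 1 the summed level of the 6 class I presentation genes was 831 [821, 840.1] CPM in control, 852 [836, 868] in Marfan and 887 [872, 901] for the library labelled Klf4-floxed. Cluster 5, led by P2rx1, stood at 1004, 1064 and 1011 CPM. In cluster 7, led by Timp4 and Esm1 with Fn1 among its leading genes, the class I genes summed to 1617 [1557, 1679] CPM in control (127 cells), 2181 [2157, 2205] in Marfan (1131 cells) and 1444 [1426, 1461] in the library labelled Klf4-floxed (1207 cells). In the shallow cluster 0, which held 5718 Marfan cells with a median of 1348 UMIs, they stood at 1509.7 CPM, against 1009 in 146 control cells. The libraries lay close together in clusters 1 and 5, and Marfan stood above control in clusters 7 and 0. The part of this make-up in the differences of the whole class was not tested. With cluster 0 left out, 12 genes were again higher in Marfan. The 10 limit genes defined further on (Isg15, Irf7, the Ifit genes and others) were lower in Marfan within cluster 1 (35.8 CPM in control, 15.97 in Marfan) or cluster 7 (350.3 and 201), and higher in cluster 5 (12.9 and 56.02). Modulated SMC markers summed to 618 CPM in control SMC-like cells, 3489 in Marfan and 3163 for the library labelled Klf4-floxed.

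More members passed the limit in fibroblast-like cells than in SMC-like cells. Of 36 members measured in them, 25 were at least 1.5-fold higher in Marfan than in control and 0 lower, where 3.25% of all genes were higher and 2.99% lower, and the median log2 ratio was 0.79. The direction was not the same under other settings, and why it shifted was not tested. With up to 20% mitochondrial UMIs kept and the cells clustered again, 2 were higher and 6 lower. There a cluster of 3501 cells led by Coch and Prss35 was itself named fibroblast. With the interferon and class I genes used in the clustering, 2 were higher and 10 lower. There a cluster of 574 cells led by Cxcl10 and Ifit3b was named fibroblast. Of the 25, Rsad2 and Ifi44 reached 5 CPM only in Marfan. By role these were 1 of 2 sensors, 2 of 4 transcription factors, 14 of 17 effectors, 4 of 7 GTPases and 4 of 6 class I genes. Compared with Marfan, 24 of 36 members were lower by at least 1.5-fold and 0 higher in the library labelled Klf4-floxed, where 1.88% of all genes were lower and 1.07% higher (median -0.74). Under those 2 alternatives 2 were lower, with 5 and 6 higher. The members were counted against control too: 8 of 36 members were at least 1.5-fold above it and 0 below, where 2.76% of all genes were above and 2.55% below.

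Irf7 stood at 13.98 CPM in control fibroblast-like cells, 50.5 in Marfan and 16.03 for the library labelled Klf4-floxed, log2 ratios of 1.85 for Marfan to control and -1.66 for that library to Marfan. Marfan was the high library, with the other two close together. Stat2 (17.96, 25.97 and 16.5 CPM) and Irf9 (26.9, 43.7 and 27.6 CPM), partners in the type I complex, had the same order. Irf1, which interferon gamma induces directly, did not: it stood at 42.9, 46.2 and 56.3 CPM. The sensor Ifih1, which binds long double-stranded RNA, was at 19.2, 29.5 and 23.6 CPM.

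Effectors had the 2 largest ratios, both of genes under 5 CPM in control. Ifi44 was at 2.84 CPM in control, 21.1 in Marfan and 9.44 for the library labelled Klf4-floxed (2.89 for Marfan to control). Rsad2, an enzyme that makes a chain-terminating nucleotide, stood at 2.84, 16.5 and 6.06 CPM (2.54). Ifit1 was at 14.96, 60.7 and 22.5 CPM (2.02). Ifi204 (7.84, 31.5 and 12.7 CPM) and Ifi205 (10.53, 41.4 and 16.3 CPM), members of the DNA-sensing HIN-200 family, were 2.00 and 1.98 higher on the log2 scale. Isg15 (1.65), its protease Usp18 (1.63; 6.30, 19.4 and 7.28 CPM), Ifit3 (1.47; 33.2, 92.4 and 52.9 CPM) and Ifit3b (1.41) followed. In each of these genes Marfan was the highest library and control the lowest. Bst2 (227, 374 and 208 CPM) and Ifi27l2a (687, 1314 and 569.8 CPM) were high in Marfan and lowest for the library labelled Klf4-floxed. Ifit2 was flat, at 27.2, 25.5 and 27.7 CPM.

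Among the GTPases in fibroblast-like cells, Iigp1 stood at 22.6, 93.999 and 38.9 CPM (2.06) and Igtp at 7.17, 21.8 and 11.4 CPM (1.60). Gbp2 (36.2, 51.5 and 40.2 CPM) and Gbp7 (39.4, 54.2 and 43.8 CPM) had the same order but stayed under 1.5-fold. Of the class I genes, H2-K1 stood at 337, 579 and 346 CPM (0.78 [0.74, 0.82]), H2-D1 at 563, 891 and 573 CPM (0.66) and B2m at 865, 1399 and 1061 CPM (0.69 [0.67, 0.72]). Tap1 was at 12.5, 19.4 and 14.7 CPM (0.63). The immunoproteasome subunits Psmb8 (107, 132 and 98.7 CPM) and Psmb9 (29.8, 38.4 and 33.7 CPM) were under 1.5-fold, unlike in SMC-like cells, a difference between classes that was not tested.

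The fibroblast-like difference was present in both of its clusters. The summed class I presentation genes summed to 1683 [1658, 1708] CPM in control, 2153 [2127, 2179] in Marfan and 1782 [1759, 1805] for the library labelled Klf4-floxed in cluster 3 (led by Hsd11b1), and at 2174 [2144, 2205], 3828 [3797, 3860.3] and 2593 [2561, 2625] CPM in cluster 6 (led by Ebf2 and Pi16). The limit genes stood at 164, 417 and 176 CPM in cluster 3 and 177, 624 and 327 CPM in cluster 6. Macrophage or monocyte-like cells were 4.14% of kept lineage-negative cells in control, 14.8% in Marfan and 9.27% for the library labelled Klf4-floxed, and the 10 macrophage or monocyte markers summed to 96.5, 157 and 114 CPM within fibroblast-like cells, with none at 0. The 6 T or NK markers summed to 0.0516, 2.86 and 0.130 CPM there, with 5, 1 and 4 of them at 0. Neutrophil markers summed to 4.02, 15.9 and 2.51 CPM there and erythroid markers to 6.55, 149 and 5.37 CPM, with none at 0. Erythroid markers in SMC-like cells summed to 2.82, 82.2 and 33.1 CPM, the same order as most class I genes. The part of these cells, or of their free RNA, in the differences was not tested.

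The Prss35-led cluster, whose markers lay between fibroblast and valve interstitial cells, ran the opposite way. All 37 members were measured in it, and 25 were at least 1.5-fold lower in Marfan than in control and 0 higher, where 2.86% of all genes were lower and 1.89% higher (median -0.73). The library labelled Klf4-floxed had 13 members at least 1.5-fold above Marfan and 1 below, where 1.51% of all genes were higher and 1.71% lower (median 0.48). All 7 GTPases, 12 of 18 effectors, 2 of 4 transcription factors, 2 of 2 sensors and 2 of 6 class I genes were among those lower in Marfan.

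Rsad2 was at 168 CPM in control, 37.2 in Marfan and 96.3 for the library labelled Klf4-floxed (-2.17 [-2.30, -2.05] for Marfan to control, 1.37 for that library to Marfan). Ifit2 stood at 253, 70.9 and 76.01 CPM (-1.83) and Ifit3b at 204, 74.9 and 132 CPM (-1.45). Isg15 stood at 760.3, 426 and 628 CPM (-0.83) and Iigp1 at 367, 176 and 322 CPM (-1.06). Control was the highest library for all 5. Igtp (93.5, 35.05 and 48.7 CPM; -1.42), Ifi47 (-1.32), Parp14, an ADP-ribosyltransferase (-1.26), Ifit3 (-1.24), Ifit1 (-1.23), Gbp7 (142, 62.7 and 99.7 CPM; -1.18), Usp18 (-1.08) and Irgm1 (-1.07) completed the 12 largest with Iigp1. Irf7 was lower in Marfan than in both others, at 105, 65.3 and 117 CPM. The class I heavy chains and B2m differed little: H2-K1 stood at 860.4, 703 and 862 CPM, H2-D1 at 1119.7, 996 and 1110.0 CPM, and B2m at 2021, 1839 and 2134 CPM. Ifi205 (7.65, 8.28 and 2.16 CPM) was the member below Marfan in the library labelled Klf4-floxed, where it was under 5 CPM.

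The 2 stromal populations ran in opposite directions, and joining them removed most of the counts. With the Prss35-led cluster added to the fibroblast-like class, 2 of the members were at least 1.5-fold higher in Marfan than in control and 6 lower, where 1.78% of all genes were higher and 2.02% lower (median -0.24). The 25 became 2, and the 24 lower in the library labelled Klf4-floxed likewise became 2, with 5 higher (1.29% and 1.12% of all genes). The Prss35-led cluster held 28.0% of kept lineage-negative cells in control, 21.3% in Marfan and 32.8% for the library labelled Klf4-floxed.

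**Figure D3:**
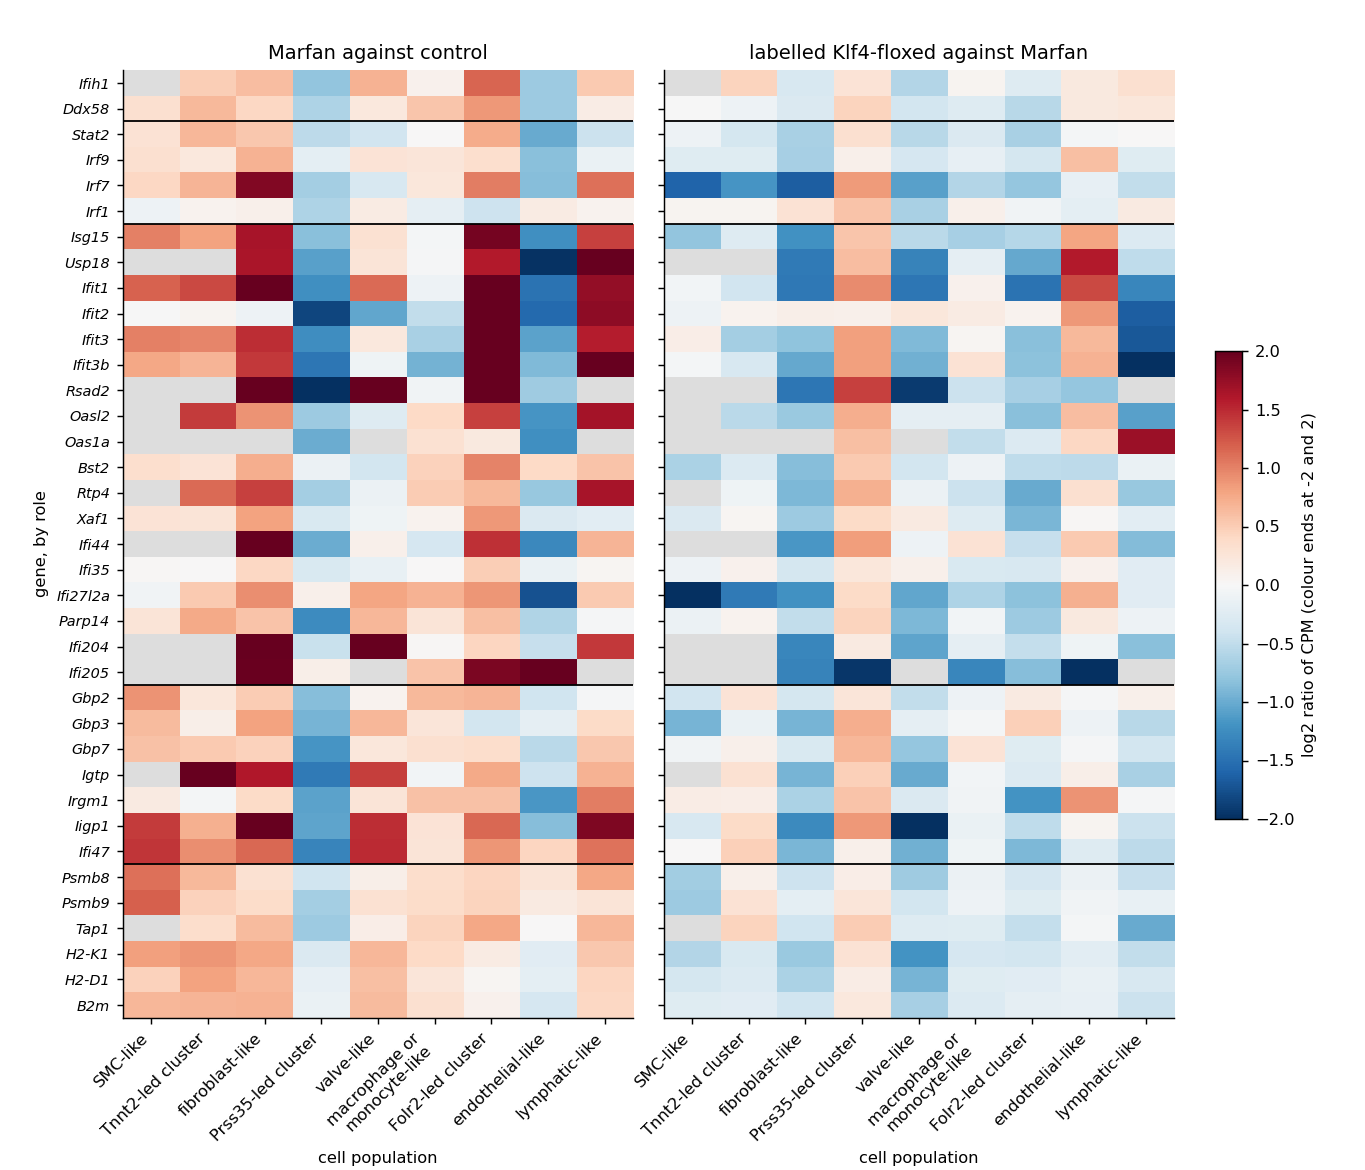
Log2 CPM ratio of the 37 genes (rows) in 9 populations (columns), Marfan to control on the left and the library labelled Klf4-floxed to Marfan on the right, with grey for genes under 5 CPM in both libraries or with no ratio, and colours ending at -2 and 2. The fibroblast-like column has 25 genes at least 1.5-fold higher on the left, and the Prss35-led column has 25 at least 1.5-fold lower.

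The unnamed Tnnt2-led cluster of lineage-positive cells, whose best match was SMC, was read on its own. It was left unnamed because Tnnt2, which is on the cardiomyocyte marker list, stood among its leading genes. In it 17 of 31 members were higher in Marfan than in control and 0 lower (3.19% and 2.19% of all genes; median 0.66). Of the 17, 5 reached 5 CPM only in Marfan of these 2 libraries, Igtp among them. Of 24 members at 5 CPM in both, 12 were higher. Isg15 stood at 22.02, 38.6 and 32.3 CPM, Igtp at 1.65, 6.76 and 8.30 CPM, H2-K1 at 129, 238 and 192 CPM and B2m at 616, 983 and 841 CPM. Against Marfan, 3 members were lower in the library labelled Klf4-floxed and 0 higher (1.11% and 1.56% of all genes): Ifi27l2a (184 against 68.8 CPM), Irf7 (11.5 against 5.06) and Ifit3 (20.3 against 12.6). The immunoproteasome gene Psmb8 stood at 17.2, 26.9 and 28.98 CPM, with control the lowest.

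Valve interstitial-like cells had 13 of 35 members higher in Marfan than in control and 1 lower (4.41% and 8.61% of all genes), and 18 of 35 lower in the library labelled Klf4-floxed than in Marfan and 0 higher (5.19% and 3.06%). Of the 13, 3 reached 5 CPM only in Marfan, and of 32 members at 5 CPM in both libraries 10 were higher. Of the 18, 1 reached it only in Marfan, and of 34 members at 5 CPM in both 17 were lower. H2-K1 stood at 237, 378 and 165 CPM, H2-D1 at 417, 632 and 330.5 CPM, and B2m at 755, 1174 and 740.1 CPM. Iigp1 stood at 22.1, 61.7 and 12.01 CPM, while Isg15, at 100.1, 123 and 84.7 CPM, was under 1.5-fold. Marfan was the highest library for each of these 5 genes.

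Macrophage or monocyte-like cells, which had high levels in every library, had few members past the limit. Of 37 members, 2 were higher (Ifi27l2a and Gbp2) and 2 lower (Ifit3 and Ifit3b) in Marfan than in control, where 8.58% of all genes were higher and 7.15% lower. Ifi27l2a stood at 1519, 2468 and 1616 CPM, Isg15 at 488, 473 and 299 CPM, and B2m at 3570.0, 4442 and 3668 CPM. Against Marfan, 3 members were lower in the library labelled Klf4-floxed (Ifi27l2a, Isg15 and Ifi205) and 0 higher (4.17% and 6.02% of all genes). The class joined 2 clusters, and cluster 12, led by Ly6c2 and Arg1, had 37 cells in control, 362 in Marfan and 91 for the library labelled Klf4-floxed. The count of 2 was 0 without it, 6 by mean CPM per cell, 9 after thinning and 11 without interferon-high cells.

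A macrophage-like cluster led by Folr2 and Cd163, left unnamed because Lyve1 stood among its leading genes, had 24 of 37 members higher in Marfan than in control and 0 lower (4.93% and 7.56% of all genes; median 0.78). Of the 24, 3 reached 5 CPM only in Marfan, and of 34 members at 5 CPM in both libraries 21 were higher. Ifit2 stood at 6.82, 39.8 and 41.6 CPM (2.54), Ifit3 at 20.9, 109 and 61.1 CPM (2.39) and Isg15 at 55.7, 210.3 and 142 CPM (1.92). The class I genes H2-K1 (1151, 1291 and 1006 CPM), H2-D1 (2319, 2392 and 2041 CPM) and B2m (2574, 2738 and 2420.4 CPM) were within 1.5-fold. In the library labelled Klf4-floxed 15 members were lower than in Marfan and 0 higher (5.54% and 6.98% of all genes). Effectors thus passed 1.5-fold in these cells, and these 3 class I genes did not.

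Endothelial-like cells, of which control had 118, again ran the other way, with 20 of 37 members lower in Marfan than in control and 1 higher. The background was high in this small class, where 23.6% of all genes were lower and 10.9% higher. The 1 higher member reached 5 CPM only in Marfan. Isg15 stood at 403, 172 and 298 CPM, Ifi27l2a at 1823, 546 and 897 CPM, and B2m at 2840.4, 2247 and 2012 CPM. Against Marfan, 10 members were higher in the library labelled Klf4-floxed and 2 lower (11.3% and 8.34% of all genes). Of those 2 lower, 1 reached 5 CPM only in Marfan. Lymphatic endothelial-like cells (65 in control) had 18 of 35 members higher in Marfan and 0 lower (15.3% and 17.5%), with Isg15 at 141, 365 and 301 CPM. Of the 18, 2 reached 5 CPM only in Marfan, and of 33 members at 5 CPM in both libraries 16 were higher. Against Marfan, 11 of 36 members were lower in the library labelled Klf4-floxed and 1 higher (13.2% and 8.39% of all genes). Of the 11, 1 reached 5 CPM only in Marfan, and the 1 higher reached it only in the library labelled Klf4-floxed. In lymphatic endothelial-like cells Rsad2 was counted in Marfan alone, at 56.7 CPM.

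A wider pathway list of 86 further genes was read in the same way. None of the receptor and kinase genes passed 1.5-fold between Marfan and control in SMC-like, fibroblast-like or Prss35-led cells, 0 of 7 in each, a count that shares of 4.09%, 3.25% and 1.89% of all genes higher cannot set apart. In SMC-like cells the type I receptor chain Ifnar1 stood at 14.6, 15.6 and 14.9 CPM and Ifnar2 at 45.2, 50.1 and 44.997 CPM. The interferon gamma receptor chain Ifngr1 stood at 51.99, 53.1 and 54.2 CPM, Jak1 at 59.99, 63.5 and 64.7 CPM and Tyk2 at 6.53, 6.60 and 7.52 CPM. Ifngr2, at 82.6, 113 and 119 CPM, was the most different of these, and both Fbn1 C1041G/+ libraries stood above control.

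Few UMIs of the interferons themselves were counted. Ifnb1 had 9, 43 and 30 UMIs in macrophage or monocyte-like cells of control, Marfan and the library labelled Klf4-floxed, which had 180, 1042 and 574 such cells. Ifng, the gene of interferon gamma, had 34 UMIs in Marfan macrophage or monocyte-like cells and 0 in both other libraries. The 10 leading genes of cluster 12 of that class included Klrd1, a receptor gene of NK cells, and the dendritic marker Cd209a. With the fractions clustered apart, a cluster of 212 cells whose best match was dendritic had Cd209a, Klrd1 and the T-cell markers Cd3g and Cd3d among its leading genes. The class can therefore hold dendritic and T or NK cells, and which cells held the Ifng UMIs was not tested. Ifng had 3 UMIs in Marfan fibroblast-like cells and 1 in Marfan SMC-like cells. Ifna4 had 0 UMIs in every population.

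Of the further class I genes, the chaperone Tapbp (52.6, 56.2 and 55.7 CPM) and the transporter Tap2 (21.2, 21.3 and 21.4 CPM) were flat in SMC-like cells. The immunoproteasome subunit Psmb10 stood at 21.2, 31.5 and 27.4 CPM, and Psmb5, the constitutive subunit that Psmb8 replaces, at 285, 290.4 and 281 CPM. Nlrc5, the class I transactivator, was under 1 CPM in SMC-like cells of all 3 libraries and at 0.464, 1.52 and 0.823 CPM in fibroblast-like cells. Over the list in SMC-like cells, 9 of 49 measured genes were higher in Marfan (4.09% of all genes) and 1 lower (3.16%), the feedback inhibitor Socs1 (8.24, 3.42 and 4.70 CPM), followed at the low end by Jak2 (-0.20) and Psmb7 (-0.19). In fibroblast-like cells 24 of 68 were higher (3.25% of all genes) and 0 lower (2.99%), with Mavs, Socs1 and Irf3 the lowest at -0.25, -0.23 and -0.17.

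The highest ratios of the wider list were those of genes almost absent from control. In SMC-like cells the non-classical class I genes H2-Q7 (0.166, 7.81 and 0.709 CPM) and H2-Q6 (0.237, 5.02 and 0.677 CPM) stood high in Marfan alone, with 7 and 10 UMIs in control against 434 and 279. In fibroblast-like cells H2-Q7 was at 2.48, 30.5 and 7.75 CPM and H2-Q6 at 2.17, 15.9 and 4.16 CPM. These genes are close copies of one another, so their separate values are uncertain. Cxcl9, a T-cell chemokine induced by interferon gamma, stood at 0.310, 9.21 and 0.780 CPM in fibroblast-like cells. Ccl5, another T-cell chemokine, ran differently in SMC-like cells, at 0.190, 6.13 and 16.7 CPM, highest in the library labelled Klf4-floxed, as did Cxcl10 at 0.214, 4.44 and 8.02 CPM. In the Prss35-led cluster Cxcl10 stood at 1007, 515 and 167 CPM. There Mx1, an antiviral GTPase (49.1, 11.3 and 16.9 CPM), and Cmpk2 (102, 31.7 and 41.6 CPM) had the lowest Marfan to control ratios, with Oasl1 at -1.60, and Ccl5 (1.03), Sting1 (0.73) and Mndal (0.64) the highest.

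Whether a difference lay in all cells or in few was read after each cell was thinned to 2000 UMIs, so that shallow and deep libraries compare. A cell was called interferon-high with at least 3 of those UMIs in 10 limit genes (Ifit1, Ifit3, Ifit3b, Isg15, Irf7, Rsad2, Usp18, Oasl2, Ifi44 and Rtp4). Such cells were rare in the SMC-like class: 0.757% of control cells (27 of 3565), 1.52% of Marfan cells (68 of 4487) and 0.824% of cells of the library labelled Klf4-floxed (37 of 4490). A further 102, 5047 and 125 cells were too shallow to thin. Without thinning, 1.94%, 3.01% and 2.86% had at least 3 UMIs. Among fibroblast-like cells the shares were 3.21%, 9.48% and 3.42% (14.0%, 31.8% and 15.1% without thinning; 64, 91 and 63 too shallow). In the Prss35-led cluster they were 21.5%, 15.5% and 29.9%, so Marfan had the lowest share there and the highest in the other 2. In the Folr2-led cluster they were 5.24%, 17.3% and 8.79%, and in macrophage or monocyte-like cells 14.9%, 26.0% and 20.6%. Of the 2 clusters of that last class, cluster 8 was nearly level between control and Marfan, at 18.2%, 18.4% and 21.0%. Cluster 12, led by Ly6c2, had 0 of 32 cells in control, 42.0% of 319 in Marfan and 18.3% of 82 in the library labelled Klf4-floxed.

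Members that the limit did not use were high in interferon-high SMC-like cells too, and less evenly so in other classes. In Marfan SMC-like cells all 25 such members with at least 20 CPM in either set were at least 1.5-fold higher in interferon-high cells than in the rest, against 21.6% of all other genes. Of these, 19 reached 20 CPM in the interferon-high cells alone and so had to differ, and the other 6 were higher too. Bst2 stood at 853 against 77.6 CPM, Psmb8 at 257 against 13.7 CPM and H2-K1 at 1389.7 against 179 CPM. In fibroblast-like cells 18 of 24 were higher in control, 25 of 26 in Marfan and 21 of 26 in the library labelled Klf4-floxed. All other genes passed at 16.2%, 6.55% and 17.4%. Of members at 20 CPM in the rest, 10 of 16, 19 of 20 and 12 of 17 were higher. Of the 6 class I genes 3, 6 and 2 were higher there, and 1 in Marfan macrophage or monocyte-like cells (14.5% of all other genes). In the Marfan interferon-high SMC-like cells, SMC markers were at 62.6 UMIs per 2000 against 98.5 in the rest and fibroblast markers at 5.07 against 0.877. Macrophage or monocyte and T or NK markers were at 0, which in 68 cells of 2000 UMIs each cannot show that low levels were absent. Their median depth was 10160.5 UMIs against 10737 in the rest. By cluster, 55.9% of Marfan interferon-high SMC-like cells lay in cluster 7, and the share there was 7.09% in control, 3.58% in Marfan and 2.33% for the library labelled Klf4-floxed. Control also stood above Marfan in cluster 1 (0.516% against 0.177%) and cluster 0 (2.78% of 72 cells against 1.97%). Cluster 5 ran the other way, with 0 of 263 control cells against 0.768% in Marfan. Cluster 7 held 127 of the 3565 control cells and 1062 of the 4487 Marfan cells. The part of this make-up in the share of the whole class was not tested.

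**Figure D4:**
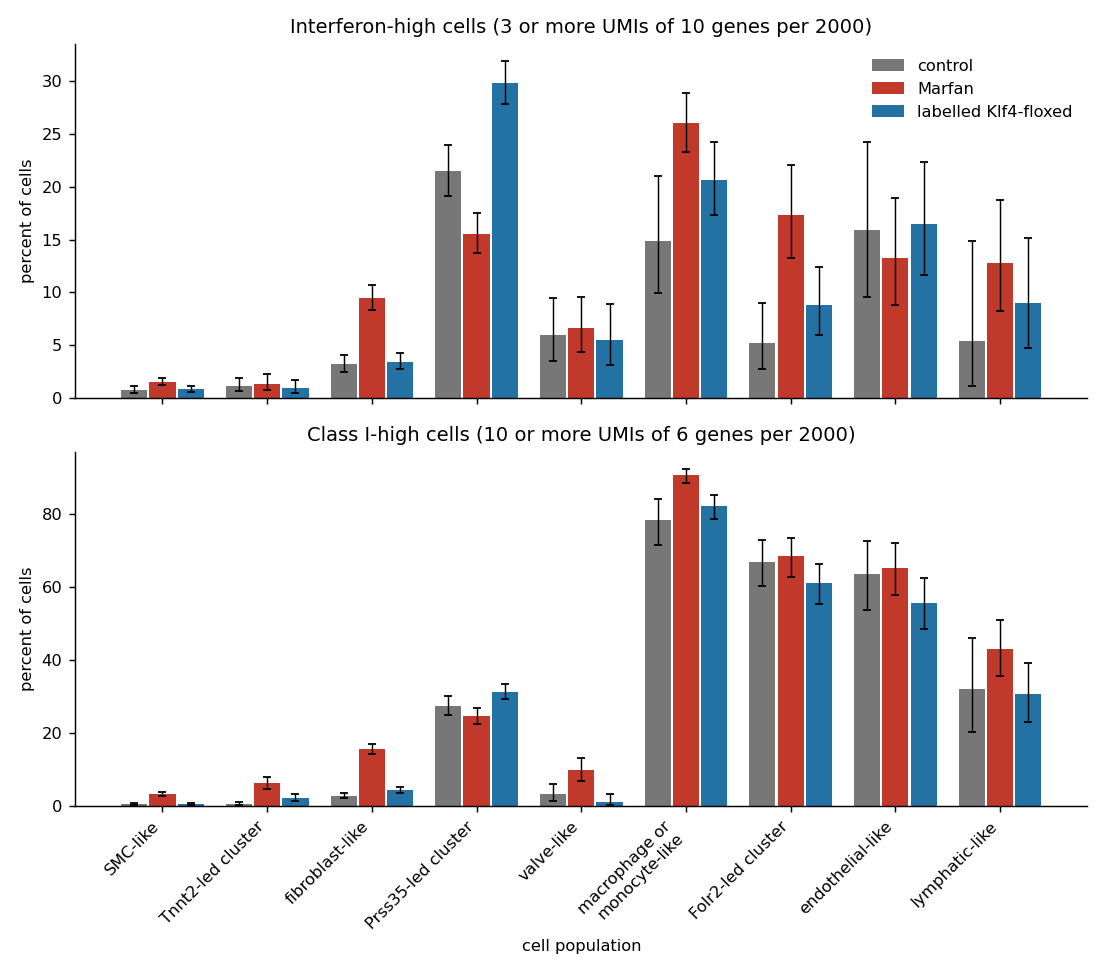
Percent of cells called interferon-high (at least 3 UMIs per 2000 in the limit genes) and class I-high (at least 10 per 2000 in the class I genes), by population and library, with Clopper-Pearson 95% intervals. In fibroblast-like cells the Marfan bars stand at 9.48% and 15.6%, above both other libraries.

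The rare interferon-high cells held much of the difference in the genes that define them and little of the difference in class I. In SMC-like cells they held 56.8% of the Marfan to control difference in the limit genes, 40.4% of that in the interferon-inducible GTPases and 10.8% of that in the class I presentation genes. The remaining cells still differed, by 0.57 [0.52, 0.61] in log2 for class I presentation and 0.67 [0.46, 0.88] for the GTPases. In fibroblast-like cells the interferon-high cells held 83.0% of the difference in the limit genes, 66.3% for the GTPases and 32.8% for class I presentation, where the rest differed by 0.63 [0.59, 0.67]. In the Prss35-led cluster they held 94.5% of the difference in the GTPases. The shares for the limit genes only describe the selection, since the remaining cells hold at most 2 such UMIs.

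Class I had its own upper tail. A cell was called class I-high with at least 10 of 2000 UMIs in Psmb8, Psmb9, Tap1, H2-K1, H2-D1 and B2m, a limit set after the values were seen. In SMC-like cells 0.533% of control cells (19), 3.16% of Marfan cells (142) and 0.512% of cells of the library labelled Klf4-floxed (23) were class I-high. Without thinning the shares with at least 10 UMIs were 44.2%, 23.1% and 68.2%, in the order of the median depths of 11690.0, 1858.5 and 13506 UMIs. In fibroblast-like cells the shares were 2.77% (56), 15.6% (390) and 4.35% (98), against 70.1%, 81.1% and 78.4% without thinning. In valve interstitial-like cells they were 3.17%, 9.74% and 1.10%, and in the Tnnt2-led cluster 0.579%, 6.19% and 2.30%. At a limit of 20 UMIs they were 0.112%, 1.14% and 0.111% in SMC-like and 0.0989%, 5.16% and 0.533% in fibroblast-like cells. At 3 UMIs, the 75th percentile of SMC-like cells in each library, the SMC-like shares were 25.2%, 37.5% and 34.9%, so both Fbn1 C1041G/+ libraries stood above control there and Marfan alone stood out in the tail.

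**Figure D5:**
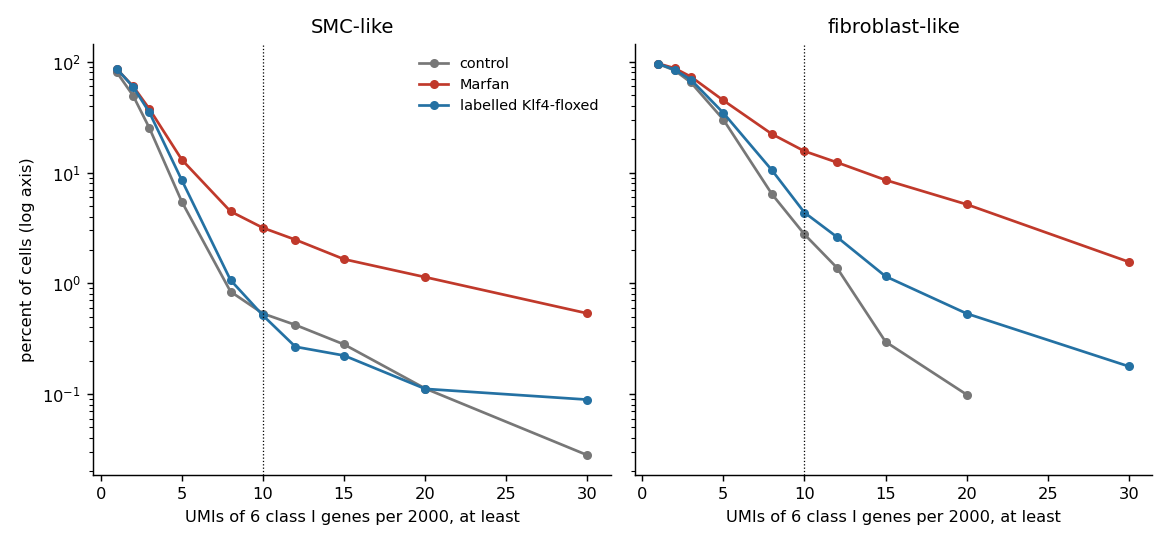
Percent of cells (log axis) with at least the given number of class I UMIs per 2000, by library, for SMC-like and fibroblast-like cells, with a dotted line at the limit of 10. The Marfan curve lies above the other two beyond the limit, where it stands at 15.6% of fibroblast-like and 3.16% of SMC-like cells, and a point of 0 cells is not drawn.

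The class I-high and interferon-high cells overlapped in part. Of the Marfan class I-high SMC-like cells 20.4% were interferon-high, against 0.898% of the rest, and 42.6% of the interferon-high cells were class I-high. In control 63.2% of the 19 class I-high SMC-like cells were interferon-high. Of the Marfan class I-high fibroblast-like cells 22.1% were interferon-high against 7.15% of the rest. Of the Marfan class I-high SMC-like cells 69.0% lay in cluster 7, where the share was 6.30% in control, 9.23% in Marfan and 1.33% for the library labelled Klf4-floxed. In fibroblast-like cells cluster 6 held most of them, with shares of 4.64%, 23.8% and 8.32%, against 1.25%, 5.58% and 1.06% in cluster 3. They held 56.7% of the Marfan to control difference in class I presentation in SMC-like cells and 105% in fibroblast-like cells, and the remaining cells differed by 0.34 [0.29, 0.38] and 0.15 [0.10, 0.19]. Since these genes set the limit, those shares only describe the tail.

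Genes outside that limit were read in the same cells. In Marfan SMC-like cells the class II genes H2-Aa, H2-Ab1 and H2-Eb1 with the invariant chain Cd74, which SMC at rest hardly express, summed to 2563 CPM in class I-high cells against 21.6 CPM in the rest, and 46.5% of the former had a UMI of them against 3.38%. Cd74 alone stood at 1275 against 10.1 CPM. The interferon-inducible GTPases summed to 923 against 58.1 CPM. In the 19 control cells class II summed to 868 CPM and in the 23 cells of the library labelled Klf4-floxed to 870 CPM. Class I-high cells held 84.7% of the Marfan to control difference in class II in SMC-like cells. In Marfan fibroblast-like cells class II summed to 419 against 189 CPM and the GTPases to 731 against 182 CPM.

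Markers of antigen-presenting cells were low in these SMC-like cells. The 10 macrophage or monocyte markers summed to 14.1 CPM in Marfan class I-high SMC-like cells and 11.4 CPM in the rest, dendritic markers to 10.6 and 0.230 CPM, and T or NK markers to 0 in both. Free RNA can put UMIs in cells that do not express a gene. The part of free RNA, or of doublets that were not removed, in the class II difference was not tested. SMC markers were lower, at 25775 against 49725 CPM, modulated SMC markers higher, at 6349 against 3022 CPM, and fibroblast markers higher, at 3179.6 against 382 CPM. The median depth was 11293.5 UMIs in class I-high cells and 10699 in the rest. In Marfan class I-high fibroblast-like cells macrophage or monocyte markers summed to 181 CPM against 159 CPM in the rest.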

How the data were processed

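The deposited matrices held UMI counts per gene and cell barcode, made by the authors with Cell Ranger 6.1.2 per the file headers, on mm10 per the submitters' processing notes. How that software treated reads shared by near-identical genes is not given in the sources used here. From the counts, barcodes were kept from 1000 UMIs and 500 genes upwards where mitochondrial UMIs made up no more than 10%. Doublets were scored with Scrublet in each library. Its own threshold removed 69 of 7105 Marfan and 70 of 6263 labelled Klf4-floxed lineage-negative cells. In the other libraries it called very few, and top-scoring cells were removed instead, their number set by the cell number. These were 163 of 4510 control lineage-negative cells. In the lineage-positive libraries they were 236 of 5432 in control, 1171 of 12100 in Marfan and 322 of 6349 in the one labelled Klf4-floxed. Cells were clustered with scanpy 1.11.5 and leidenalg 0.10.2 (2000 variable genes without the interferon and class I genes, 30 principal components, 15 neighbours, resolution 1). A cluster was named from marker lists where at least 3 markers of that class were detected and the next class was not within a margin, conditions that were set after the data were seen. UMIs were summed per class and library and given as CPM with Poisson intervals, and ratios with conditional binomial intervals. The intervals cover counting error only. A gene was measured at 5 CPM in either library and called at 1.5-fold. Shares carry Clopper-Pearson 95% intervals after each cell was thinned to 2000 UMIs, and shallower cells were left out. The class I limit of 10 UMIs was set after the values were seen. The calls were tested on simulated data: in SMC-like cells (9165 genes) 100% of genes raised and 99% of genes lowered 2-fold were recovered, with 0% of unchanged genes called, while in endothelial-like cells (10186 genes) 13.78% of unchanged genes were called. Both simulated libraries were drawn from the control profile with counting error only. The simulation therefore cannot tell how many genes would be called between real libraries that differ by animal, pool or handling. Genes are named in each class if they passed 1.5-fold, at most the 12 largest, or belong to a fixed set (Isg15, Ifit3, Irf7, Stat2, Bst2, Ifi27l2a, Gbp2, Gbp7, Psmb8, Tap1, H2-K1, H2-D1 and B2m), and for the wider list a fixed set with the 3 highest and 3 lowest ratios. The members and lists were chosen with earlier results of these data known. Python 3.11.15, numpy 2.4.6, scipy 1.17.1 and pandas 2.3.3 were used. Some results that name withheld items are not reported here.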

Additional observations from a re-analysis of the deposited data

Results flagged for a closer look

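The median Marfan to control log2 ratio of the members pointed in opposite directions in different populations. It was 0.79 in fibroblast-like cells, 0.66 in lymphatic endothelial-like cells, 0.66 in the Tnnt2-led cluster and 0.78 in the Folr2-led cluster, against -0.71 in endothelial-like cells and -0.73 in the Prss35-led cluster. With 1 library per group the difference between populations was not tested.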

How the results depend on the processing

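No paired analysis was possible because each group and fraction is 1 library, so the groups share only 1 replicate number and no residual spread remains. Of the alternatives, 18 kinds were planned and 12 were chosen after seeing the data: those that move the class I limit, join or leave out clusters, or concern class I-high cells. The fibroblast-like calls changed their balance under 3 alternatives given below, and the causes of the shifts were not tested except where an alternative tests fewer genes.
For SMC-like cells, the 12 members higher in Marfan than in control became 6 with doublets kept, 4 with a minimum of 20 CPM, 23 with no minimum and 7 at 2-fold. The 7 lower in the library labelled Klf4-floxed than in Marfan became 3 with up to 20% mitochondrial UMIs, 3 with doublets kept, 4 with the interferon genes kept in clustering, 3 with fractions clustered apart, 3 at 20 CPM, 12 with no minimum, 2 at 2-fold, 3 without interferon-high cells and 4 with the Tnnt2-led cluster joined.
For fibroblast-like cells, the 25 higher became 2 with up to 20% mitochondrial UMIs, 2 with the interferon genes kept, 14 at 2-fold and 2 with the Prss35-led cluster joined. The 24 lower became 2, 2, 11 and 2 under these, and 14 without interferon-high cells. Where 2 were left, more members pointed the other way: 6, 10 and 6 were lower in Marfan than in control, and 5, 6 and 5 higher in the library labelled Klf4-floxed than in Marfan. At 20% mitochondrial UMIs the class took in a cluster led by Coch and Prss35. With the interferon genes kept it took in a cluster led by Cxcl10 and Ifit3b.
For macrophage or monocyte-like cells, the 2 higher became 5 at 4000 UMIs, 0 at 20% mitochondrial UMIs, 6 by mean CPM per cell, 9 after thinning, 0 at 2-fold, 11 without interferon-high cells and 0 without cluster 12. The 3 lower became 1 with fractions apart, 5 by mean CPM, 5 after thinning, 1 at 2-fold and 5 without interferon-high cells.
For endothelial-like cells, the 1 higher became 4 at 20% mitochondrial UMIs, 4 with doublets, 2 with interferon genes kept, 2 with fractions apart, 2 with median-of-ratios scaling, 0 at 20 CPM and 5 without interferon-high cells. The 2 lower became 5, 5 and 4 at 20% mitochondrial UMIs, with doublets and with fractions apart, 1 by mean CPM, 1 at 20 CPM, 1 at 2-fold and 8 without interferon-high cells.
The interferon-high share of SMC-like cells was 1.19% in control at 5% mitochondrial UMIs and 0.329% with fractions apart. In Marfan it was 2.38% at a limit of 2 UMIs, 0.802% at 5 UMIs and 1.11% with doublets, and in the library labelled Klf4-floxed 1.22% and 0.557% at those limits.
The class I-high share of SMC-like cells was 0.842%, 4.46% and 1.07% for control, Marfan and the library labelled Klf4-floxed at a limit of 8 UMIs, 0.281%, 1.65% and 0.223% at 15, and 0.845%, 4.15% and 1.24% when thinned to 1000 UMIs. With fractions apart it was 0.141% in control and 2.14% in Marfan, in Marfan 3.85% at 5% mitochondrial UMIs and 2.26% with doublets, and in the library labelled Klf4-floxed 0.872% with the Tnnt2-led cluster joined.
The interferon-high share of fibroblast-like cells was 5.78%, 15.95% and 5.95% at a limit of 2, 1.58%, 5.04% and 1.87% at 5, 10.04%, 13.1% and 14.6% with the interferon genes kept, and 9.90%, 11.7% and 15.8% with the Prss35-led cluster joined. Marfan was above both others in 7 of 9 alternatives for this share, the library labelled Klf4-floxed being above it in the last pair of settings, and in 10 of 10, 10 of 10 and 9 of 9 for the SMC-like interferon-high, SMC-like class I-high and fibroblast-like class I-high shares. None of these alternatives held the mix of clusters fixed. Within SMC-like clusters 0, 1 and 7 the interferon-high share was higher in control than in Marfan.
The class I-high share of fibroblast-like cells was 6.38%, 22.2% and 10.48% at a limit of 8, 0.297%, 8.56% and 1.16% at 15, 6.56%, 19.2% and 8.90% when thinned to 1000, 8.11%, 17.6% and 11.6% with the interferon genes kept, and 11.8%, 18.9% and 17.0% with the Prss35-led cluster joined. Thinned to 4000 UMIs the control share was 1.73%, and that of the library labelled Klf4-floxed was 3.42%.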
